A study of Mus musculus with 20 samples.

Results

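Hearts of mice fed pitavastatin were compared with hearts of mice fed pravastatin. The comparison takes the 8 arrays titled for these 2 drugs, 4 of each, out of the 20 arrays of the series. Every mouse was a male C57BL/6J that arrived at 6 weeks of age, had 2 weeks to settle on standard chow and was then treated for 4 weeks, with the powdered tablet mixed into its food. The labelled doses were 4.5 mg/kg/day of pitavastatin calcium and 21.0 mg/kg/day of pravastatin sodium, so each difference given here is one between these drugs at these unequal doses. The other mice, which share the strain, sex, age and chow, were 4 controls on chow alone, 4 on rosuvastatin calcium at 10.9 mg/kg/day and 4 on atorvastatin calcium hydrate at 11.4 mg/kg/day. RNA came from the left ventricle of single animals, and 1 GeneChip Mouse Genome 430 2.0 array was run per mouse. Per the labels, doses were worked out from daily food intake.

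Statins block the mevalonate pathway. That pathway yields cholesterol, the side chain of coenzyme Q and the isoprenoid lipids that are attached to small GTPases such as Ras. When sterols run low in a cell, SREBP transcription factors are released from the endoplasmic reticulum and raise the genes of sterol synthesis and uptake. Pravastatin is a hydrophilic statin derived from a fermentation product and enters cells largely through transporters, most of all in the liver. Pitavastatin is a synthetic, lipophilic statin. The title of the series sets out to compare statins by the genes expressed in hearts of normal mice.

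The values are probe set signals, here as log2 of signal plus 16, and a difference is pitavastatin minus pravastatin on that scale, so that a negative value is lower under pitavastatin. Deposited arrays had been scaled to a common trimmed mean of 500. All 12 cardiomyocyte markers were among the tested genes, with Tnnt2, cardiac troponin T, at a mean of 15.55 and 15.29 in the pitavastatin and pravastatin groups, while 2 of 11 lymphocyte markers on the array were bright enough to test. Array 1 of the pravastatin group stood apart from the other 7: its median signal was 63, against 80.2 to 108 in the others, and on the first principal component, with 45.6% of the variance, it scored 62.4 while the others lay between -32.1 and 10.4. Some results below are given with and without it. The second component, with 15.8% of the variance, held the pitavastatin arrays at 7.0 to 20.3 and the pravastatin arrays at -22.2 to -4.3. The probe set for 18S ribosomal RNA read 11.45 ± 0.17 (SD, n = 4) under pitavastatin and 11.92 ± 0.29 (SD, n = 4) under pravastatin, with overlapping arrays. That difference of -0.47 had p = 0.0571 in a two-sided exact permutation test, which can give no p below 0.0286 with 4 against 4 mice, and 0.286 after Benjamini-Hochberg adjustment over 5 array measures. The 4 other measures (median signal, the 3' to 5' ratios of actin and Gapdh, and the hybridization controls) had adjusted p between 0.357 and 0.8. The part that any of these played in the differences below was not tested.

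Few transcripts separated the hearts of the 2 groups beyond the spread between mice. Of 22518 probe sets tested, 2 passed an adjusted p of 0.05, which is 0.00888%, and both were lower under pitavastatin. They belong to Med1 and Zfp516. Med1 is the subunit of Mediator that nuclear receptors such as PPARs bind; Mediator bridges DNA-bound factors and RNA polymerase II. Zfp516 is a zinc finger transcription factor known from brown fat.

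Med1 was read at 9.61, 9.59, 9.69 and 9.65 in the pitavastatin mice and at 10.36, 10.40, 10.63 and 10.57 in the pravastatin mice by the probe set 1421907_at. The groups lay far apart, and the pitavastatin mice were unusually alike, at 9.63 ± 0.04 (SD, n = 4) against 10.49 ± 0.13 (SD, n = 4). The difference was -0.85 (SE 0.13, limma adjusted p = 0.0308), which is a signal 1.81-fold higher under pravastatin. The control mice averaged 9.70 and the rosuvastatin and atorvastatin mice 10.50 and 10.18, so that the pitavastatin mean stood beside the control mean. The adjusted p of Med1 ran from 0.000101 to 1 over the alternatives, and leaving out any 1 of the 8 mice took it to between 0.06 and 0.225.

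Zfp516 was read by 1437921_x_at at 9.26, 9.18, 9.14 and 8.97 under pitavastatin and at 9.71, 9.73, 9.58 and 9.73 under pravastatin. The groups did not overlap, with means of 9.14 ± 0.12 (SD, n = 4) and 9.69 ± 0.07 (SD, n = 4). The difference was -0.55 (SE 0.08, limma adjusted p = 0.0308), or 1.46-fold higher under pravastatin. Here the control mean of 9.42 fell between the groups. Its adjusted p ran from 0.00343 to 1 over the alternatives and, as for Med1, no call was kept when a mouse was left out: the lowest was 0.0527. The other probe set of Zfp516, 1455944_at, was too dim to test and averaged 6.31 under pitavastatin and 6.26 under pravastatin.

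**Figure D1:**
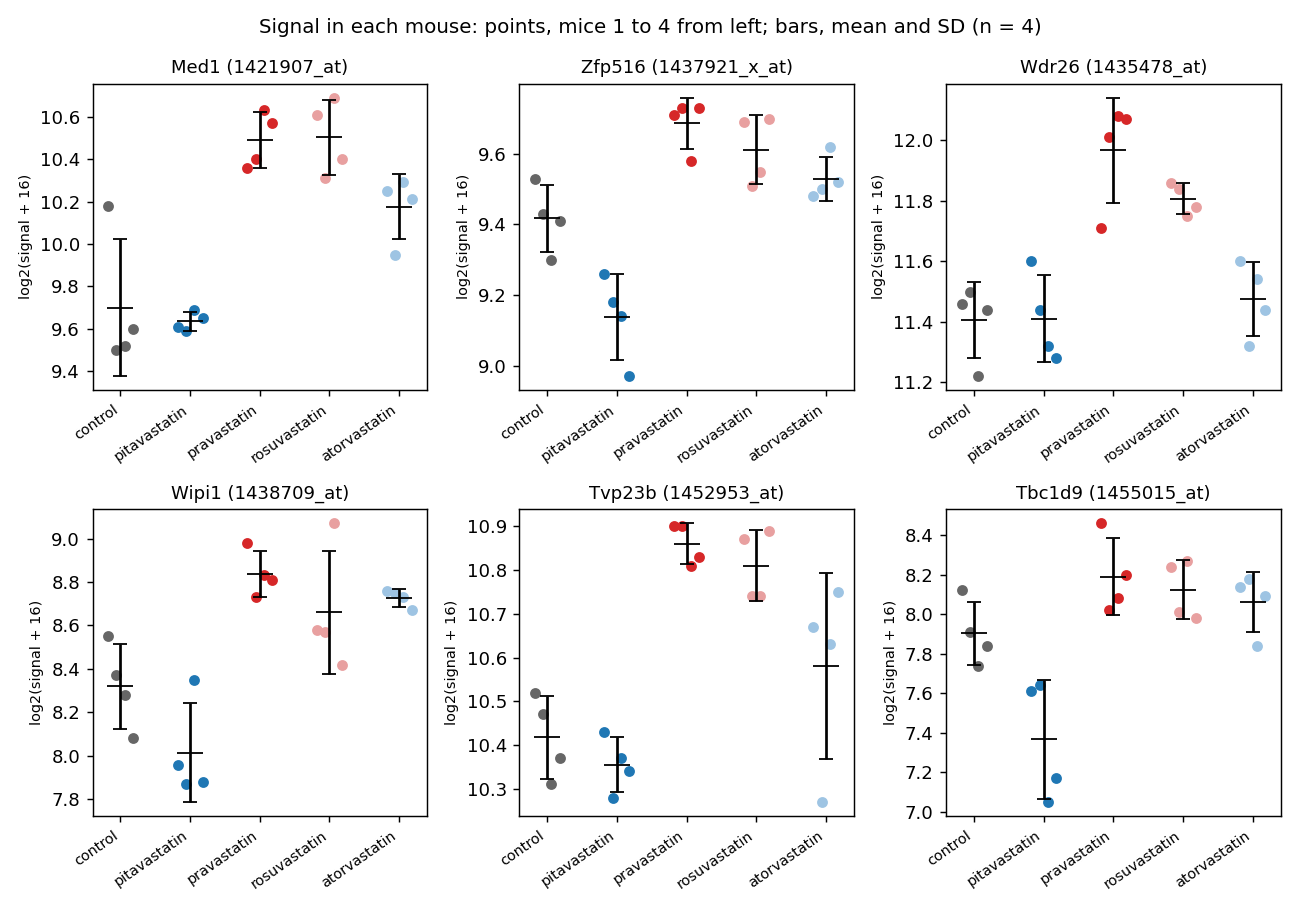
Log2 of signal plus 16 (vertical axis) in each of the 4 mice of 5 groups for 6 probe sets, with group means and SD as bars. The pitavastatin and pravastatin points do not overlap in any of the 6 panels, and for Med1 the pitavastatin mean of 9.63 lies near the control mean of 9.70.

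Below these calls came 3 probe sets at an adjusted p of 0.0728, all lower under pitavastatin and none of them overlapping. Wdr26, a scaffold subunit of the CTLH ubiquitin ligase, was read by 1435478_at at 11.60, 11.44, 11.32 and 11.28 under pitavastatin and at 11.71, 12.01, 12.08 and 12.07 under pravastatin, a difference of -0.56 (SE 0.09). The lowest pravastatin value was that of mouse 1, the array that stood apart, and without it Wdr26 was the single probe set to pass, at an adjusted p of 0.0255. Wipi1, which binds phosphoinositides at forming autophagosomes, stood at 7.96, 7.87, 8.35 and 7.88 against 8.98, 8.73, 8.83 and 8.81 on 1438709_at, a difference of -0.82 (SE 0.14). Tvp23b, a Golgi membrane protein named after its values were seen, gave 10.36 ± 0.06 (SD, n = 4) and 10.86 ± 0.05 (SD, n = 4), a difference of -0.51.

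The remaining genes named by size did not pass either. Those furthest below 0 were Tbc1d9 at -0.82 (SE 0.16, adjusted p = 0.134), Foxk2 at -0.80 (overlapping), Shtn1 at -0.78, Gid4 at -0.69, Abhd18 at -0.67, Siah2 at -0.66, Eif4e2 at -0.65 and Cbx5 at -0.64. Gid4 is the substrate receptor of the CTLH ligase that holds Wdr26, Siah2 is a ubiquitin ligase, Eif4e2 binds the messenger RNA cap and represses translation, Foxk2 is a forkhead transcription factor, and Cbx5 is heterochromatin protein 1 alpha. Their adjusted p lay between 0.231 and 0.302 apart from Tbc1d9.

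Among the 100 probe sets with 1 gene symbol and the smallest p, 95 were lower under pitavastatin and 5 were higher. Over all tested probe sets, 44.1% were lower and 55.9% higher. The 5 higher ones were Ptpa at 0.55, Tyw5 at 0.50, Epdr1 at 0.47, Sptan1 at 0.37 and Borcs7 at 0.33, with limma adjusted p of 0.293 to 0.334. Ptpa activates protein phosphatase 2A, Tyw5 modifies a base of phenylalanine transfer RNA, Sptan1 is alpha II spectrin of the membrane skeleton, and Borcs7 belongs to a complex that positions lysosomes. Sptan1 read 10.50, 10.60, 10.67 and 10.31 under pitavastatin and 10.24, 10.11, 10.20 and 10.06 under pravastatin. Since no more than 5 of the 100 were above 0, the rule for 10 on the upper side also took the 5 smallest negative differences, Ppp4r2 (-0.28), Suz12 (-0.29), Tent4b (-0.29), Rras2 (-0.31) and Ccdc43 (-0.31). Suz12 is a subunit of the Polycomb repressive complex 2 and Tent4b a noncanonical poly(A) polymerase.

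**Figure D2:**
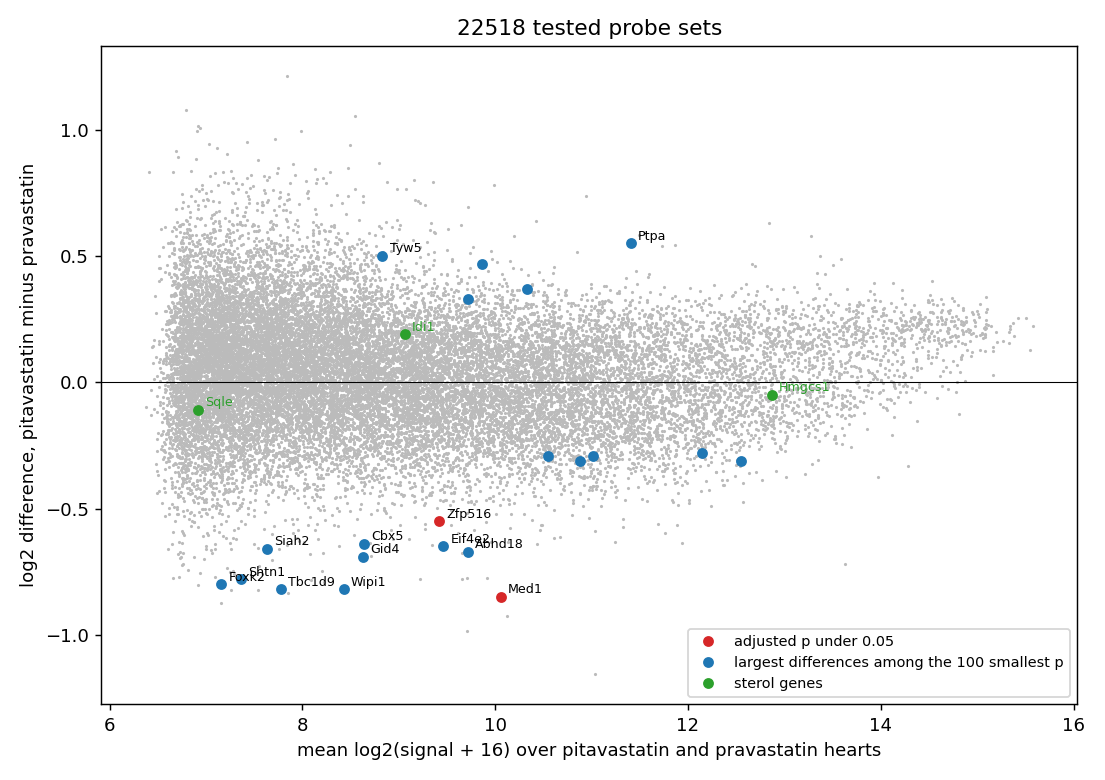
Log2 difference, pitavastatin minus pravastatin (vertical), against the mean log2 of signal plus 16 of the 8 arrays (horizontal) for 22518 probe sets in grey. The called Med1 and Zfp516 (red) lie at -0.85 and -0.55, the genes named by size are blue, and the sterol genes Hmgcs1, Idi1 and Sqle (green) lie between -0.11 and 0.19.

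At an unadjusted p under 0.05 there were 1946 probe sets (8.64%), of which 701 (3.11%) were higher and 1245 (5.53%) lower under pitavastatin. This lean to lower values depended on the fit. The higher share was 36% here, but 52.1% with each array's median signal as a covariate, 50.3% in a fit of the 8 arrays alone and 47.2% without pravastatin mouse 1. In contrast, it was 40% with quantile normalization and 37.3% with arrays centred on their median. With any other single mouse left out it was 28.5% to 36.5%. Groups that did not overlap were somewhat more common on the lower side: 1008 probe sets (4.48%) with every pitavastatin array above every pravastatin array, against 1224 (5.44%) with every one below. The 95% interval of a difference reached a median of 0.36 to either side, so differences of up to about that size could not be told from 0 for a typical probe set.

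Other probe sets of the same genes often did not share the difference. Among those 100, 82 had another tested probe set of their gene, and the brightest other one had the same sign in 63 and the same sign with an unadjusted p under 0.05 in 24. The median difference was -0.44 on the chosen probe sets, which were chosen for it, and -0.15 on the others. Med1 is such a case: its brightest probe set, 1448708_at, read 12.30, 12.41, 12.47 and 12.49 under pitavastatin and 12.36, 12.37, 12.58 and 12.55 under pravastatin. That difference of -0.05 has a 95% interval of -0.23 to 0.13, and 3 further probe sets of Med1 gave -0.21, -0.02 and 0.09.

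Gid4, Cbx5, Wipi1 and Eif4e2 repeated this pattern, with their brightest probe sets at -0.04, 0.00, 0.03 and 0.10. In Gid4, though, 1427068_x_at was also low, at -0.65 with overlap, and its remaining tested probe sets were at 0.25, 0.37 and 0.05. For Rras2 and Borcs7 a dimmer probe set had the opposite sign, at 0.03 and -0.14. For Wdr26 the low probe set was the brightest, and 4 dimmer ones gave 0.10, 0.15, -0.17 and -0.33. In other genes all tested probe sets had the same sign, though not always a like size. All 5 tested probe sets of Suz12 were lower under pitavastatin, by -0.29, -0.27, -0.29, -0.18 and -0.24, and 3 of them did not overlap. Several such genes were picked out after their values were seen. Sde2, a factor of genome maintenance and splicing, gave -0.61, -0.49 and -0.24. Pum2, an RNA-binding repressor of translation, gave -0.55, -0.37 and -0.15 with no overlap on any of the 3. Ago4, an Argonaute protein of microRNA silencing, gave -0.34 and -0.50, and Zfp597, a zinc finger protein, -0.36 and -0.56. On the higher side, Sptan1 gave 0.37 and 0.54. None of these passed the adjusted threshold.

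**Figure D3:**
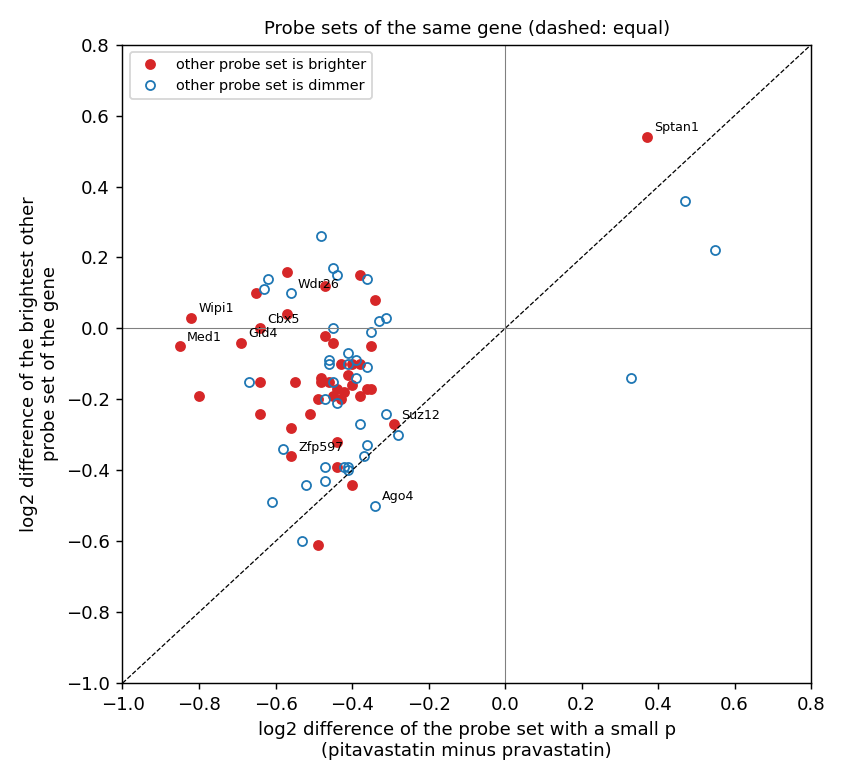
Difference of the brightest other probe set of a gene (vertical, log2) against that of the probe set with a small p (horizontal, log2) for 82 probe sets, filled red where the other is brighter. Points on the dashed line agree; Med1, Wipi1, Gid4 and Cbx5 lie near 0 on the vertical axis, while Suz12, Ago4 and Sptan1 lie by the line.

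The genes of the statins' own pathway were close between the groups. Of 8 tested genes from acetyl-CoA to squalene, 5 were higher and 3 lower under pitavastatin and none passed, with a median difference of 0.10 beside 0.03 over all 11229 genes. Hmgcs1, a synthase early in the pathway, read 12.94, 12.78, 12.84 and 12.81 against 12.83, 12.81, 12.97 and 12.96. The groups overlapped, with a difference of -0.05 and a 95% interval of -0.27 to 0.18, and its 3 other probe sets gave -0.22, -0.18 and -0.11. Idi1, an isomerase of the isoprenoid building block, differed by 0.19 (interval -0.08 to 0.46) on its brightest probe set and by -0.19 (interval -0.61 to 0.23) on another. Sqle, squalene epoxidase, differed by -0.11 (interval -0.60 to 0.38). Fdps and Ggps1, which make farnesyl and geranylgeranyl diphosphate, were at 0.36 and -0.25, the second without overlap.

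Of 8 genes that turn squalene into cholesterol, 2 were higher and 6 lower, with a median of -0.09. Cyp51, a demethylase of lanosterol, had the smallest p, at -0.24 (SE 0.11, limma adjusted p = 0.563). The sensing and uptake genes were mixed, 7 higher and 5 lower of 12, with a median of 0.08. Srebf1, the SREBP that favours fatty acid synthesis, was at 8.80, 8.92, 8.95 and 9.14 against 8.75, 8.60, 8.66 and 8.55. Those groups did not overlap, though the difference of 0.31 (SE 0.12) had an adjusted p of 0.519. Srebf2, the SREBP of sterol synthesis, was at 0.38 (SE 0.19) with overlap, and Abcg1, a sterol exporter driven by oxysterol receptors, at -0.40 (SE 0.18) with overlap.

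A sterol regulatory element was looked for as TCACNCCAC on either strand in RefSeq promoters of build GRCm38.p6, which run from 250 bases before to 50 after a start. It was found for 388 of 27025 genes with a promoter there (1.44%), and for 1 of 6 matched genes of the steps to squalene, 0 of 7 of those after squalene and 0 of 8 of the sensing genes. A match is a run of letters, not a site shown to be used. The 250 bases before the start of Hmgcs1, the gene with the match, are at chr13:119690101-119690350 on the plus strand and are shown because this pathway is what statins act on. The capitals mark the match, which begins 137 bases before the start.
Hmgcs1: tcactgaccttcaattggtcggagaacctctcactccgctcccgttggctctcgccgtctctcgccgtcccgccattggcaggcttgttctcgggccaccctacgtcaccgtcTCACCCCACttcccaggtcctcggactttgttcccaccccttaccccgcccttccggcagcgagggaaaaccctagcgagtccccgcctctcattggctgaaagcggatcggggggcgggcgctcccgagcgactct

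Products of the mevalonate pathway were followed through 2 further lists. Coenzyme Q synthesis had 8 genes higher and 3 lower of 11, with a median of 0.15 that was 0.09 without pravastatin mouse 2. Coq9, a lipid-binding protein of that synthesis, read 13.20, 13.37, 13.31 and 13.29 against 13.07, 12.96, 13.09 and 13.03. The groups did not overlap, yet the difference of 0.26 (SE 0.10) had an adjusted p of 0.524, and Coq10b, a coenzyme Q binding protein, was at -0.40 (SE 0.18). Prenylation enzymes and small GTPases had 7 higher and 11 lower of 18, with a median of -0.02 and differences between -0.23 and 0.18. Rap1gds1, a chaperone of prenylated GTPases, was at -0.23 without overlap.

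Transporters of statins and monocarboxylates were also alike, with 4 higher and 6 lower of 10 and a median of -0.02. Their differences ran from -0.27 for Abcg2, a drug efflux pump, to 0.10 for Abcb1a, another efflux pump, and no gene among them had an unadjusted p under 0.05. Among 13 vascular genes known to respond to statins in endothelial cells, none passed. Nos3, endothelial nitric oxide synthase, was at 8.12, 8.26, 8.21 and 8.21 under pitavastatin and 8.05, 8.04, 7.82 and 7.62 under pravastatin. This gap of 0.32 (SE 0.17, limma adjusted p = 0.619) was free of overlap, and Thbd, thrombomodulin, was lower by -0.23 without overlap.

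Lists were described by counts, with 1 probe set per gene, the brightest. Over all 11229 genes, 54.8% were higher under pitavastatin, 3.8% were higher and 6.34% lower at an unadjusted p under 0.05, and the arrays did not overlap in 5.12% (pitavastatin higher) and 6.31% (pitavastatin lower). No gene of the 37 lists passed the adjusted threshold on its brightest probe set. Several lists lay almost wholly on one side all the same, and the counts below are to be read against those shares. The lists and their members were chosen with earlier results of these data known, so these counts are descriptions and not tests.

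Genes of mitochondrial energy production were higher under pitavastatin by small amounts. All 33 tested subunits of complex I, which passes electrons from NADH to coenzyme Q, were higher, by 0.03 to 0.33 with a median of 0.24, and 16 did not overlap. Complexes II to V had 36 higher and 2 lower of 38 (median 0.21, 9 without overlap), the tricarboxylic acid cycle 16 and 1 of 17 (median 0.15), and fatty acid oxidation 15 and 3 of 18 (median 0.18). Ndufs4, an accessory subunit of complex I, read 13.52, 13.51, 13.52 and 13.58 against 13.31, 13.21, 13.35 and 13.23. The pitavastatin mice were nearly identical and all above the pravastatin mice, with a difference of 0.25 (SE 0.09, limma adjusted p = 0.476). Ndufa10, another accessory subunit, was at 0.32, and Echs1, the hydratase of fatty acid oxidation, at 0.38, both without overlap.

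These medians differed between scalings. With quantile normalization the medians became 0.07 for complex I, 0.04 for complexes II to V, 0.03 for the tricarboxylic acid cycle and 0.11 for fatty acid oxidation, beside 0.01 over all probe sets. With arrays centred on their median they were 0.17, 0.15, 0.08 and 0.12, beside -0.03 over all probe sets, and with median signal as a covariate they were 0.21, 0.18, 0.14 and 0.16. Without pravastatin mouse 1 they were 0.20, 0.17, 0.11 and 0.17. The brightest 10% of all genes had a median of 0.06 with 60.7% higher, and the dimmer 50% had 0.06 with 60.2% higher. Markers of cardiomyocytes moved with them: 11 of 12 were higher, with a median of 0.23. That median became 0.05 with quantile normalization and 0.16 without pravastatin mouse 1. The summed signal of these markers ranged on the log2 scale from 18.54 to 18.75 under pitavastatin and from 18.23 to 18.69 under pravastatin. In bulk tissue, fewer cells of a type and less RNA per cell cannot be told apart.

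Sarcomere genes followed the same course, with 21 higher and 3 lower of 24 and a median of 0.22. That median was 0.06 with quantile normalization and 0.18 without pravastatin mouse 1. Actn2, alpha actinin of the Z disc, was at 14.06, 14.25, 14.06 and 14.03 against 13.81, 13.76, 13.74 and 13.79, a gap of 0.33 (SE 0.14, limma adjusted p = 0.548) without overlap. Of 14 skeletal muscle markers, 5 were bright enough to test, with 4 higher and 1, Tnni2, lower at -0.32. The markers summed to a log2 signal of 13.40 to 14.01 under pitavastatin and 13.21 to 13.33 under pravastatin. Ckm, also among the cardiomyocyte markers, was the brightest of those tested. Acta1 read 12.83 in pitavastatin mouse 2 and 11.27 to 11.65 in the others of that group. The part of skeletal muscle in the sarcomere values was not tested. Glycolysis had 12 higher and 4 lower of 16. Ldha and Pkm, the last enzymes of anaerobic glycolysis, were at 0.32 and 0.22, while Pgam1, a mutase of the same path, was at -0.36, and all were free of overlap.

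Ribosomal protein genes were higher as well. Of 33 cytosolic ones 32 were higher, with a median of 0.21 that became 0.08 with quantile normalization, and 13 did not overlap. Rps18, of the small subunit, read 13.84, 13.83, 13.81 and 13.83 under pitavastatin and 13.45, 13.50, 13.57 and 13.56 under pravastatin, a difference of 0.31 (SE 0.10, limma adjusted p = 0.392). Ribosomal protein genes have many near-identical copies in the genome, and the signal of such probe sets may hold more than 1 of them. Mitochondrial ribosomal proteins had 39 higher and 4 lower of 43, and their median of 0.17 was 0.18 with quantile normalization and 0.20 without pravastatin mouse 1. Proteasome subunits had 30 higher and 1 lower of 31, with a median of 0.11 with and without quantile normalization. With quantile normalization the last 2 lists thus kept medians where those of the respiratory chain were smaller.

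**Figure D4:**
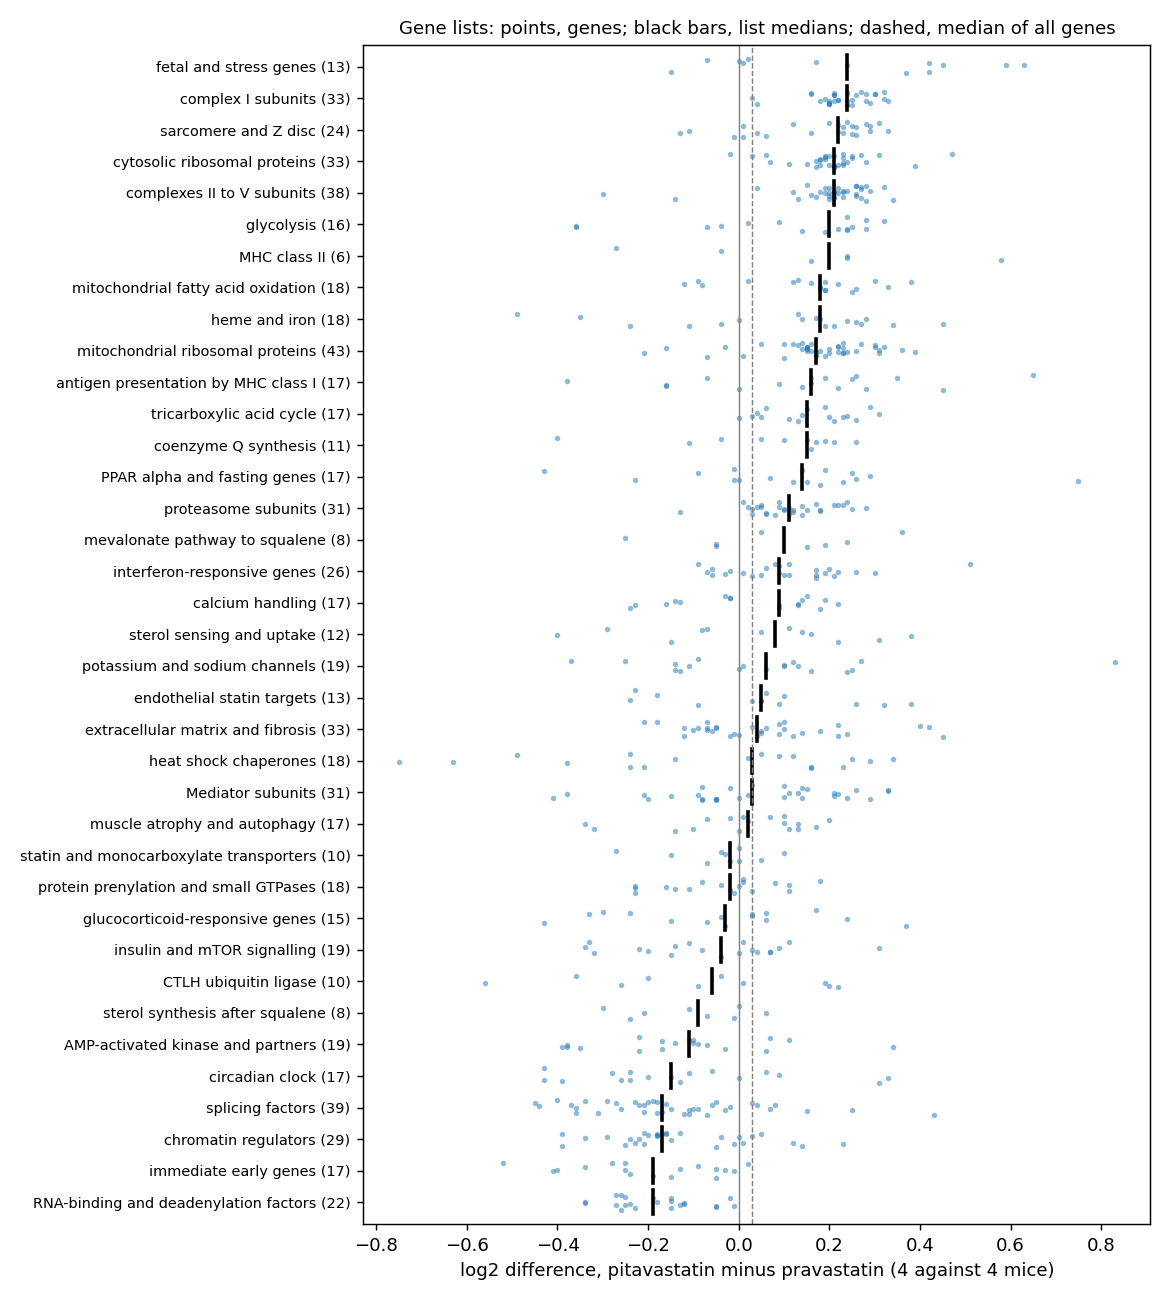
Log2 difference, pitavastatin minus pravastatin (horizontal), for each gene (points) of 37 lists, ordered by the list median (black bar), with the number of tested genes in brackets. Lists of mitochondria, sarcomere and ribosome lie above the median of all genes (0.03, dashed) and those of splicing, chromatin and RNA binding below it.

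Genes of RNA handling were lower under pitavastatin. All 22 tested RNA-binding and deadenylation factors, which shorten and silence messenger RNA, were lower, by -0.34 to -0.01 with a median of -0.19, and 6 did not overlap. Besides Ago4, the smallest p were those of Zfp36l2, which destabilizes AU-rich messages, at -0.27 (SE 0.09) and of Cnot7, a deadenylase, at -0.23 (SE 0.08). Ago4 on its brightest probe set read 10.13, 10.09, 10.02 and 10.05 against 10.34, 10.44, 10.35 and 10.50. Each pitavastatin mouse was below each pravastatin mouse, and the difference of -0.34 (SE 0.07) had a limma adjusted p of 0.231. Splicing factors had 7 higher and 32 lower of 39, with a median of -0.17, 8 lower without overlap, and 10 lower but 1 higher at an unadjusted p under 0.05. Prpf38b, of the spliceosome, was at -0.45 (SE 0.11), and Son, of nuclear speckles, at -0.40 (SE 0.11). A dimmer probe set of Prpf38b was at 0. These medians were -0.19 and -0.18 with quantile normalization, and -0.22 and -0.20 without pravastatin mouse 1.

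Chromatin regulators had 6 higher and 23 lower of 29, with a median of -0.17 and 6 without overlap, all lower. Kmt2d, a histone H3 lysine methyltransferase, read 12.09, 11.87, 12.21 and 11.80 against 12.31, 12.36, 12.39 and 12.47, a difference of -0.39 (SE 0.11, limma adjusted p = 0.334) without overlap. Ncoa2, a nuclear receptor coactivator, was at -0.29 and Smarca2, an ATPase of the SWI/SNF complex, at -0.39. Mediator itself, the complex of Med1, showed no such lean: 18 of 31 subunits were higher and 13 lower, with a median of 0.03. Its kinase Cdk8 was at -0.41 (SE 0.12) and Med13l at -0.38 (SE 0.13), both without overlap, while Med30 was at 0.29 (SE 0.12). The other genes of the CTLH ligase besides Wdr26 were mixed as well, and the list had 4 higher and 6 lower of 10.

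Immediate early genes, which respond within minutes to growth factors and stress, had 1 higher and 16 lower of 17, with a median of -0.19 both as scaled and after quantile normalization. That median was -0.09 without pitavastatin mouse 3 and lay between -0.25 and -0.13 with each of the other 7 mice left out. Fosl2, an AP-1 subunit, read 10.71, 10.85, 10.52 and 10.80 against 11.23, 11.15, 11.04 and 11.08. These did not overlap, with a difference of -0.41 (SE 0.14, limma adjusted p = 0.447), and Nr4a2, a nuclear receptor, was at -0.52 (SE 0.23). Fos and Egr1, the classic members, varied widely between mice, at -0.25 (SE 0.39) and -0.05 (SE 0.35), and are named after their values were seen. Circadian clock genes had 5 higher and 12 lower of 17, with a median of -0.15 and 4 without overlap, all lower. Nr1d2, a repressor of the clock, was at -0.39 (SE 0.11), Per3 at -0.43 (SE 0.16) and Csnk1e, a kinase of period proteins, at -0.43 (SE 0.17). The labels give no time of day at dissection, and its part in these values was not tested.

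Heat shock chaperones split in a way their median of 0.03 does not show. Of 18, 10 were higher and 8 lower, but at an unadjusted p under 0.05 there were 6 lower and 1 higher. Dnajb1, a co-chaperone of HSP70, read 9.72, 9.60, 9.54 and 9.71 under pitavastatin and 10.06, 10.50, 9.87 and 10.66 under pravastatin. The groups did not overlap, the pravastatin mice were spread more widely, and the difference was -0.63 (SE 0.16, limma adjusted p = 0.302). A much dimmer probe set of Dnajb1 was at 0.11. Dnaja1, another co-chaperone, stood at 10.50 ± 0.02 (SD, n = 4) against 10.88 ± 0.29 (SD, n = 4), and Hsp90aa1, the inducible HSP90, at 12.00 ± 0.25 against 12.49 ± 0.27 (SD, n = 4) with overlap. Chosen after their values were seen, the inducible Hspa1b was at -0.75 (SE 0.31) and the small heat shock protein Hspb1 at 0.34 (SE 0.16). Hspa1b has a near-identical neighbour, Hspa1a, and its signal may hold both. In Dnajb1, Dnaja1, Hspa1b and Hsp90aa1 the control means were 9.93, 10.81, 8.35 and 12.56, each above the pitavastatin mean.

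A heat shock motif was looked for as GAANNTTC or TTCNNGAA, which may overlap each other, in the same promoters. It was present for 4587 of 27025 genes (17%) and for 10 of 15 matched chaperone genes (66.7%). Of the 6 genes lower at an unadjusted p under 0.05, Hspa1b, Dnaja1 and Dnajb4 had it, as did Hspb1, which was higher. The promoters of Dnajb1 held 0 matches, and Hsp90aa1 had no promoter among those searched. The 250 bases before the start are given for Hspa1b and Dnaja1, which differed in the same direction. They lie at chr17:34959239-34959488 on the minus strand and chr4:40722218-40722467 on the plus strand, and the capitals mark the matches at 104 and 124 bases before the start. The Dnaja1 promoters of other starts, beginning at chr4:40722672 and chr4:40722680, held 0 matches.
Hspa1b: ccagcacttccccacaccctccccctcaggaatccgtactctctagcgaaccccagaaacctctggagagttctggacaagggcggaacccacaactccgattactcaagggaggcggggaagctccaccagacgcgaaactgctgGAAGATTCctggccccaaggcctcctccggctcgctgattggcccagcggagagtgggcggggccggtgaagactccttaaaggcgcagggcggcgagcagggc
Dnaja1: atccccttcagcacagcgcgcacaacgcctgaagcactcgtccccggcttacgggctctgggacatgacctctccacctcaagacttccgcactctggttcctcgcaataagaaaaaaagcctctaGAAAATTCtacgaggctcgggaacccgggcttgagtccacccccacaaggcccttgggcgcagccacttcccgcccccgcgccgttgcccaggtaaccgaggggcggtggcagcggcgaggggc

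Several further lists had medians of either sign. Glucocorticoid-responsive genes had 7 higher and 8 lower of 15 and a median of -0.03, genes of muscle atrophy and autophagy 10 and 7 of 17 and 0.02, and genes of heme and iron 13 and 5 of 18 and 0.18. The AMP-activated kinase and its partners had 4 higher and 15 lower of 19, with a median of -0.11. Prkag2, a regulatory subunit of the kinase, was at -0.38 (SE 0.13) without overlap and Flcn, folliculin, at -0.39 (SE 0.14). Insulin and mTOR genes had 9 higher and 10 lower of 19. Pik3r1, a regulatory subunit of PI3 kinase, was at -0.33 (SE 0.09) and Rptor, of mTOR complex 1, at 0.31 (SE 0.11). Both differences were without overlap, while the brightest other probe set of Pik3r1 was at 0.02. Of the PPAR alpha and fasting genes, Angptl4, an inhibitor of lipoprotein lipase singled out after its values were seen, had the largest gap at 0.75 (SE 0.43), and its mice were so scattered, at 8.24, 8.20, 6.45 and 7.71 against 6.69, 7.53, 6.43 and 6.92, that the groups overlapped.

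Ion channels and calcium handling gave single genes rather than a lean. Kcnj5, a potassium channel gated by G proteins, read 11.05, 10.88, 11.12 and 10.82 against 11.39, 11.44, 11.27 and 11.26. The difference of -0.37 (SE 0.09, limma adjusted p = 0.302) was free of overlap. Hcn2, a pacemaker channel, read 6.91, 6.87, 6.65 and 6.88 against 6.70, 6.55, 5.96 and 4.77, a difference of 0.83 (SE 0.33, limma adjusted p = 0.501) in which the groups overlapped and pravastatin mouse 4 was far below the rest. Camk2d, the calcium-dependent kinase of the heart, was at -0.24 (SE 0.10), and Kcnk3, a leak channel, at 0.24 (SE 0.11). The calcium handling median of 0.09 turned to -0.06 with quantile normalization.

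Extracellular matrix genes had 19 higher and 14 lower of 33, with a median of 0.04, and Loxl1, a cross-linker of elastin, was at 0.40 (SE 0.12, limma adjusted p = 0.366) without overlap. Fibroblast markers, 9 higher and 5 lower of 14, summed to a log2 signal of 15.64 to 15.82 under pitavastatin and 15.57 to 15.63 under pravastatin. Endothelial markers, 10 higher and 4 lower of 14, summed to 15.04 to 15.22 and 14.97 to 15.10. By far the brightest endothelial marker was Fabp4, also among the adipocyte markers, at means of 14.49 and 14.32. The part of fibroblasts and endothelial cells in these values was not tested. Fetal and stress genes had 11 higher and 2 lower of 13. Nppa, atrial natriuretic peptide, read 12.72, 13.56, 13.03 and 13.32 under pitavastatin and 12.84, 12.06, 12.84 and 12.38 under pravastatin, which overlap, a difference of 0.63 (SE 0.25, limma adjusted p = 0.521). The atrial marker Myl4 was at 0.59 (SE 0.61) with overlap, with pitavastatin mouse 2 at 11.73 and the other 3 between 8.74 and 9.21. Without that mouse the median of the 3 tested atrial markers was 0 in place of 0.59, and that of the fetal and stress genes 0.07 in place of 0.24. The 6 atrial markers, Nppa among them, summed to a log2 signal of 12.87 to 14.05 against 12.25 to 13.09. The part of atrial tissue in the Nppa values was not tested.

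Genes of antigen presentation and interferon were slightly higher under pitavastatin. MHC class I had 12 higher and 5 lower of 17 (median 0.16), and interferon-responsive genes 20 and 6 of 26 (median 0.09), with medians of 0.22 and 0.18 when pravastatin mouse 1 was left out. Cxcl9, a chemokine induced by interferon gamma, read 9.03, 8.99, 8.90 and 8.73 against 8.39, 8.45, 8.53 and 8.26. This difference of 0.51 (SE 0.19, limma adjusted p = 0.491) did not involve overlap. Psmb10, an immunoproteasome subunit, was at 0.35 (SE 0.13) and Pdia3, a chaperone of class I loading, at -0.38 (SE 0.13), both without overlap. The 6 tested MHC class II genes had a median of 0.20, which was 0.34 without that mouse and 0.11 without pravastatin mouse 2, and the interferon median was 0.05 without pitavastatin mouse 1. Macrophage markers, 9 higher and 5 lower of 14, summed to 14.61 to 14.92 and 14.57 to 15.05 in the 2 groups. Pravastatin mouse 1 read 10.40 for Adgre1, beside 8.53 to 8.82 in the others of its group, and 12.79 for Lyz2, beside 11.83 to 12.01. The lymphocyte marker Cd52 read 10.65 in that mouse, beside 8.31 to 8.61. The only other lymphocyte marker tested, Ms4a1, went the other way, at 6.58 beside 7.12 to 7.78. For the macrophage markers Lyve1 and Cd163 that mouse was also the lowest of its group, at 8.08 and 8.55. The part of immune cells in these values was not tested.

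The other lipophilic and hydrophilic statins of the series, atorvastatin and rosuvastatin, give a comparison that shares no mouse with this one. Between them 0 probe sets passed (limma, smallest adjusted p = 0.386), with 1236 (5.49%) at an unadjusted p under 0.05. The test of whether the gap between pitavastatin and pravastatin differed from the gap between atorvastatin and rosuvastatin also called 0 probe sets (limma, smallest adjusted p = 0.607), with 1836 (8.15%) at an unadjusted p under 0.05. Its 95% interval reached a median of 0.50 to either side, so no gene can be called particular to either pair.

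The 2 called probe sets illustrate this. Med1 was at -0.85 between pitavastatin and pravastatin and at -0.33 between atorvastatin and rosuvastatin, and Zfp516 at -0.55 and -0.09. Wdr26 stood at -0.56 and -0.33, Wipi1 at -0.82 and 0.07, and Shtn1, a gene of axon outgrowth, at -0.78 and 0.43. Of the 95 probe sets among the 100 smallest p that were lower under pitavastatin, 70 were also lower under atorvastatin than under rosuvastatin, beside 46.3% of all probe sets. Their median was -0.45 in the one pair and -0.08 in the other. Without rosuvastatin mouse 3 and atorvastatin mouse 2, whose median signals of 41.7 and 144 were the extremes of the series, the count was 57 of 95 beside 51.7%. The 18S signal went along with the pairs: it averaged 11.92 and 11.89 under pravastatin and rosuvastatin and 11.45 under each of pitavastatin and atorvastatin, and its part in the shared direction was not tested.

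**Figure D5:**
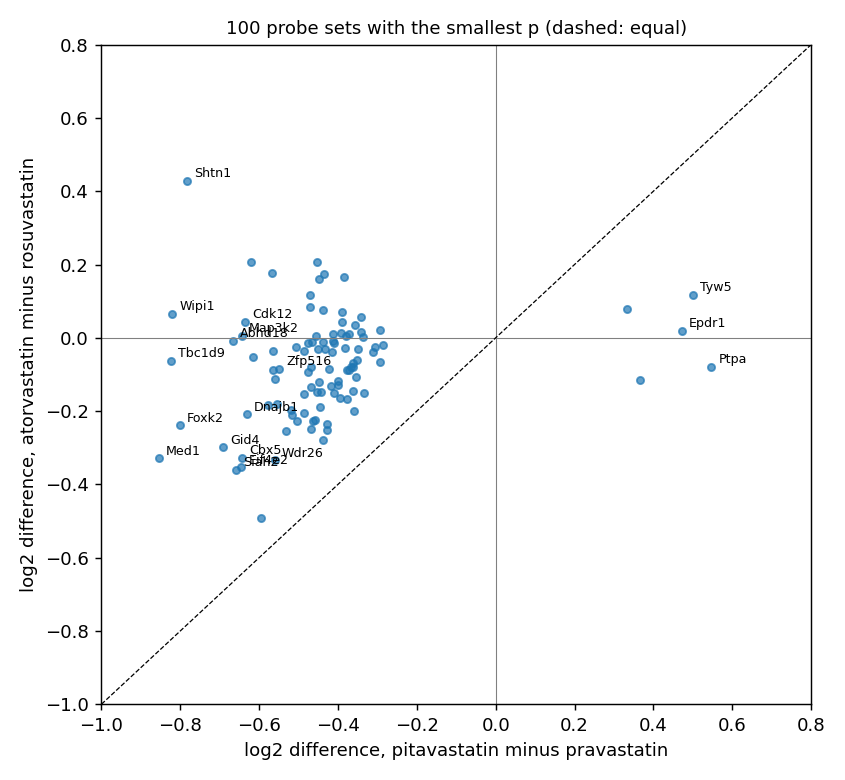
Log2 difference of atorvastatin minus rosuvastatin (vertical) against pitavastatin minus pravastatin (horizontal) for the 100 probe sets with the smallest p in the latter, with equality dashed. Of 95 points on the left, 70 lie below 0 on the vertical axis, where the median of the 95 is -0.08.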

How the data were processed

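Left ventricular RNA of 20 mice was measured on 1 array each, after amplification of 100 ng with the NuGEN Ovation system per the labels' protocols. The values the authors deposited are probe set signal intensities. MAS5 is the tool listed in the submitters' processing notes, with its version not stated. The series design names GeneSpring GX 11.0. The 64 control probe sets were left out, 16 was added before log2, and the brighter 50% of 45037 probe sets by mean over all arrays (signal above 81.8) were tested. Groups came from the sample titles. The main test was limma 3.58.1 in R 4.3.3 over all 20 arrays with 1 mean per group (15 residual degrees of freedom) and a trend in the prior variance, two-sided, with Benjamini-Hochberg adjustment over 22518 probe sets. It was tested on simulated data. Symbols are from the platform annotation: 34945 probe sets have 1, 932 several and 9160 none, and 34741 matched the RefSeq gene table, with 0 renamed. The rule for named genes took the called ones and, as they were under 10, the 10 highest and 10 lowest differences among the 100 smallest p, up to 3 per list by smallest p, and Hmgcs1, Sqle and Idi1. Some items are not reported here. The members and lists were chosen with earlier results of these data known. Alternatives changed the scaling, pseudocount, filter, model and mice used. With 4 mice a group, their number limits the precision. The highest correlation between any 2 arrays was 0.99, and no files were duplicates.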

Additional observations from a re-analysis of the deposited data

Results flagged for a closer look

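In 7 of 58 sets of 4 mice, the highest or lowest mouse stood apart from the other 3 by more than Dixon's 95% critical share of the range for 4 samples, where chance alone gives about 1 in 20. Among pitavastatin mice these were Tyw5, where mouse 2 was low at 8.86 beside 9.14 to 9.17 (share 0.885), and Rras2 (share 0.875). Among pravastatin mice they were Zfp516, where mouse 3 was low at 9.58 (share 0.844), Borcs7, where mouse 4 was low at 9.40 (share 0.912), Abhd18 (share 0.854) and Eif4e2, where mouse 2 was low at 9.63 (share 0.833). The log2 ratio of the 3' to the 5' actin probe set was low in pravastatin mouse 2, at 2.00 (share 0.899). With that mouse left out, the differences were 0.57 for Tyw5, -0.23 for Rras2, -0.59 for Zfp516, 0.28 for Borcs7, -0.57 for Abhd18 and -0.70 for Eif4e2, each in the direction given above.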

How the results depend on the processing

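The count of called probe sets was 2 with a pseudocount of 1 or 64, and 2 with 1 probe set per gene, where Wdr26 replaced Med1. It was 1 with quantile normalization, 0 with arrays centred on their median, 0 without a filter on brightness, 5 in the brightest 30%, 0 without a trend in the prior, 163 with array weights, 1 in a fit of the 8 arrays alone, 5 with median signal as a covariate and 10 when control 1, rosuvastatin 3 and atorvastatin 2, chosen after seeing the data, were left out. Leaving out 1 mouse gave 0 to 1, the 1 being Wdr26 without pravastatin mouse 1. The test of the gap between the pairs gave 0 throughout. Deviations of same-numbered mice correlated at 0.04, -0.07 and -0.12 for replicates 1 to 3 and at 0.49 for replicate 4. The main fit did not pair the mice, and the replicate block gave 5 calls. What the mice of replicate 4 shared was not tested. Med1 and Zfp516 were below 0 in every alternative that tested them, between -0.92 and -0.81 and between -0.62 and -0.49. With each mouse left out in turn, Sqle ran from -0.24 to 0.09 (above 0 without pravastatin mouse 4), the log2 actin 3' to 5' ratio from -0.05 to 0.06 (below 0 without pravastatin mouse 2), log2 median signal from -0.07 to 0.19 (below 0 without pravastatin mouse 1) and 18S from -0.57 to -0.36. The causes were not tested.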
